A study of Homo sapiens with 12 samples.

Results

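Processed pseudogenes that were strongly represented in RNA from a B cell lymphoma line were compared with the genes they were copied from, in cells with and without a hairpin RNA against IRF4. The members were all rows of biotype processed_pseudogene whose mean over the 12 libraries was at least 20 CPM (counts per 1e6 counts of the column). They were 171 of 26318 genes in the table, and 171 of its 3260 processed pseudogenes. A mean over both groups chose them, so their abundance is a description and not a finding. Just inside the threshold lay TLK2P1 at 20.7, ACTBP2 at 20.6 and RPL41P2 at 20.3 CPM, and just outside it NPM1P6 at 19.97, PA2G4P4 at 19.7 and TPT1P9 at 19.7 CPM.

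A processed pseudogene is a copy of a messenger RNA that was reverse transcribed and inserted back into the genome. It therefore lacks introns, and usually also the promoter of the gene it came from, which is called its parent. Genes with abundant, short messages in the germ line, such as those of ribosomal proteins and EEF1A1, have left many such copies in the human genome. Because a copy can be nearly identical to its parent, a read from the parent's message may match both, and rows of these pseudogenes are uncertain wherever the counting could split or assign such reads.

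The cells were TMD8, an established human lymphoma line of the activated B cell (ABC) subtype of diffuse large B cell lymphoma. In one group, IRF4 shRNA, a short hairpin RNA targeted IRF4, a transcription factor of activated B cells and plasma cells; in the other, control, the hairpin was a scramble sequence. Each group had 6 libraries, 3 in each of 2 library series that are numbered in the library names without further explanation, and cells were pelleted at 24 h. The titles name TMD8 for every library, whereas the cell line field gives TMD8 for 1 library and names with rising numbers for the others; all were taken as TMD8 from the titles. The labels say neither how the hairpins were delivered, nor how many IRF4 hairpins there were, nor whether replicates were grown separately. The p-values therefore reflect spread among these libraries alone, and it may be technical. IRF4 itself was at 611 ± 101 CPM (507 to 716) with IRF4 shRNA, against 1481 ± 55.9 CPM (1427 to 1571) in control (SD, n = 6 each), or 41.3% of control (log2 fold change -1.28, SE 0.09, edgeR adjusted p = 1.41e-08; exact two-sided permutation p = 0.00216, the smallest these groups allow). Total counts were 34.8 ± 2.10 M per IRF4 shRNA library and 34.0 ± 2.04 M per control library (M, 1e6 counts). The B cell genes MS4A1, CD79A, CD79B, PAX5 and CD22 were all above 100 CPM in every library, while the T cell gene CD3E reached at most 0.0314 CPM and the epithelial gene KRT18 was listed at 0. Myeloid genes (CD14, LYZ, CSF1R) stayed at or below 0.530 CPM, HBA1 at or below 0.105 and EPCAM at or below 0.0889. Of the fibroblast collagen genes, COL1A1 ran from 3.57 to 6.34 CPM over all libraries, and COL1A2 averaged 0.817 CPM with IRF4 shRNA and 0.0782 CPM in control. Their part in the results was not tested. In bulk RNA, fewer cells of a kind and less RNA per cell cannot be told apart.

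For 122 members the name without its final P and number was a gene of the table, and these pairs had 92 distinct parents, 69 with 1 member and none with more than 3. The other 49 had no such parent, 45 because they carry only a clone name. All 171 were found in GENCODE release 29 on the same genome build (hg38) at the same start, and 169 were annotated with a single exon. The named parent was also the coding gene with the closest transcript in 119 of 122 pairs. The exceptions were SETP14, which was closest to SETSIP, and EIF4A1P10 and EIF4A1P2, which were closest to the read-through SENP3-EIF4A1. Identity to the parent ran from 90.1% to 100%, with a median of 98.1%, and was at least 99% in 32 pairs.

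How little separates some copies from their parents is shown by stretches of 100 bases, read from GENCODE 29 transcripts. Each stretch lies in the parent's coding sequence and spans one of its exon junctions, which the pseudogene carries fused. Among such stretches that aligned without gaps, the one with the most differences was taken. Capitals mark the bases that differ between the 2 sequences of a pair. EEF1A1P5 (chr9:133019720-133019819, plus strand, hg38), the most abundant member, differed from EEF1A1 at 1 base here and at 4 of 1389 aligned bases in all.

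EEF1A1P5: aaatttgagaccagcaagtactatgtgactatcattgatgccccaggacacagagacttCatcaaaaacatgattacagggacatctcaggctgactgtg
EEF1A1: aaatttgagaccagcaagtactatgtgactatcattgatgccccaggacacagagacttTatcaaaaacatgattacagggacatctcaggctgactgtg

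RPL13AP5 (chr10:96750461-96750560, plus strand), second in abundance, differed from RPL13A at 2 bases here and at 3 of 612 in all.

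RPL13AP5: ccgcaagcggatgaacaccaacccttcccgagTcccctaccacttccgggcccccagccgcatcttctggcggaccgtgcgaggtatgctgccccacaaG
RPL13A: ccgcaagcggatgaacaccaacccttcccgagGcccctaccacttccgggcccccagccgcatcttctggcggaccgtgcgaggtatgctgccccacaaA

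RPL21P16 (chr10:120355084-120355183, minus strand) had no difference from RPL21 in the stretch shown nor in any of its 483 aligned bases.

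RPL21P16: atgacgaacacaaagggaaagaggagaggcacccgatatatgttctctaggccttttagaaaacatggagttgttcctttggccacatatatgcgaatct
RPL21: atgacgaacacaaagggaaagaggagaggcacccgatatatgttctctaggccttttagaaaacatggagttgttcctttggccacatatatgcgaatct

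RPL5P1 (chr15:24909589-24909688, minus strand), the member with the largest fall, is a more diverged copy, with 5 differing bases in the stretch and 32 mismatches over 894 aligned bases.

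RPL5P1: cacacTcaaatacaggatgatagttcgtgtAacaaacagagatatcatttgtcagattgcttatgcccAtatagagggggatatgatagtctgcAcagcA
RPL5: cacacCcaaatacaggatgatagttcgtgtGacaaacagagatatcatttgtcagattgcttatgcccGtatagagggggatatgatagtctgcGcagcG

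HMGB1P6 (chr15:71165184-71165283, minus strand), whose ratio to its parent changed most, had 7 differing bases in the stretch, of 9 mismatches over 648 aligned bases, gap positions not counted as mismatches.

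HMGB1P6: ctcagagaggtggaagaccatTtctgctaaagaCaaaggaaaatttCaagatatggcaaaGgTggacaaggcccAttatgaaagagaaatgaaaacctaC
HMGB1: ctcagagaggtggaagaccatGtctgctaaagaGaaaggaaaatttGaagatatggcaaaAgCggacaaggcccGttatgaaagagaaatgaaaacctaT

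The first question was how much of the RNA these rows took up. The 171 members together held 3.41% ± 0.0469 of all counts with IRF4 shRNA (3.33% to 3.47%) and 4.80% ± 0.0992 in control (4.67% to 4.97%; SD, n = 6 each), a difference of -1.39 percentage points with no overlap between the groups. Their 92 parents held 5.46% ± 0.0662 with IRF4 shRNA and 7.16% ± 0.0814 in control. All processed pseudogenes of the table held 3.80% ± 0.0520 with IRF4 shRNA and 5.22% ± 0.120 in control, so the members made up most of that class. No test was made of these sums, since they add up over members chosen with earlier results known. The counts were not all whole numbers, and this differed by kind of gene: of values above 0, 12.6% were whole among members and 38.0% among parents, against 73.2% among the other 6908 protein-coding genes at 20 CPM or more (tolerance 1e-06).

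Most members were lower with IRF4 shRNA. By edgeR's quasi-likelihood test over all genes, 116 of 171 members (67.8%) fell and 24 rose at a Benjamini-Hochberg adjusted p under 0.05, while 31 did not pass. Of all 16437 genes tested, 23.9% fell and 24.2% rose, so 48.2% changed. Among the 6999 protein-coding genes at a mean of 20 CPM or more, 26.8% fell and 27.2% rose. The members' median log2 fold change was -0.39, against -0.0056 over all genes tested and -0.15 over the 1213 other processed pseudogenes tested, of which 323 fell and 92 rose. Of the 65 members with a named parent that is not a ribosomal protein gene, 27 (41.5%) fell and 16 (24.6%) rose. Their median log2 fold change was -0.05, and 10 of these 27 falls were in copies of translation factor genes. All 171 members passed the filter on low counts. In 120 members the groups did not overlap in CPM (103 lower, 17 higher), against 30.8% of all genes tested. The changes were moderate, running from -0.93 to 0.73 on the log2 scale, and none reached 2-fold in either direction. Within series 1, 117 members fell and 22 rose (24.6% and 25.8% of all genes), and within series 2, 110 fell and 20 rose (17.9% and 20.2% of all genes).

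**Figure D1:**
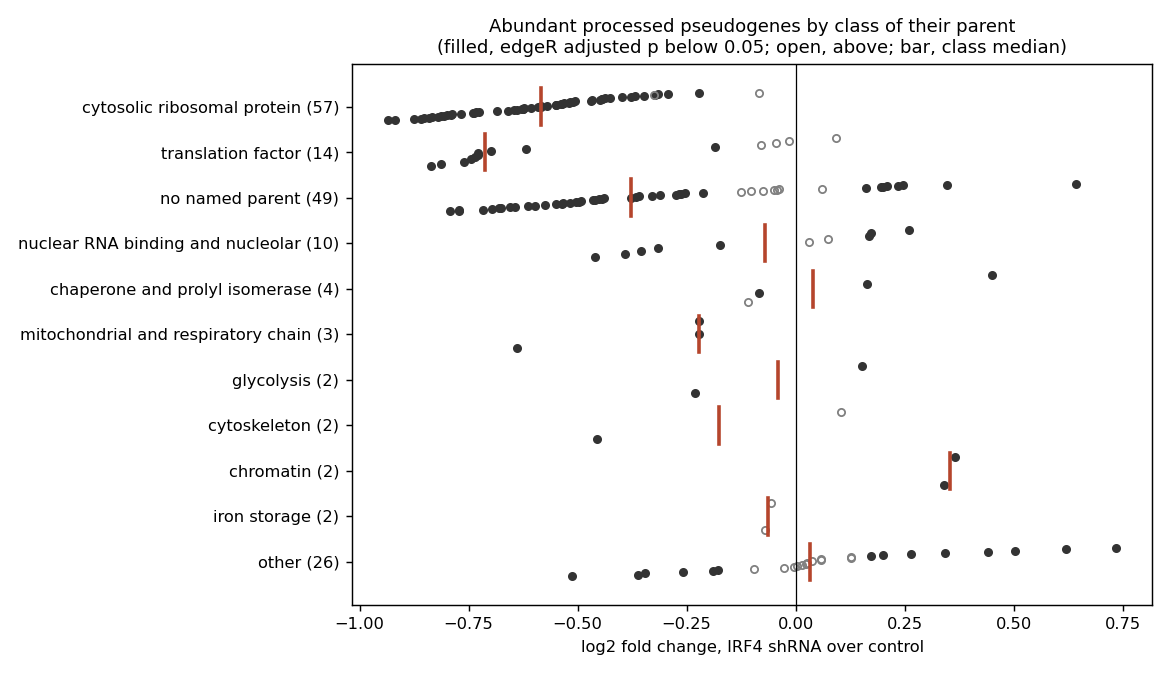
Log2 fold change (IRF4 shRNA over control) of each of the 171 members, grouped by what the parent gene encodes, with the number of members in parentheses. Filled points passed the edgeR test, open points did not, and bars mark class medians; copies of ribosomal protein genes lie at or below -0.08 throughout, while the class of other parents is spread from -0.51 to 0.73.

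Copies of ribosomal protein genes were the largest class, with 57 members, and 55 of them fell and none rose (median log2 fold change -0.58). The counts of this class and of ribosomal protein genes stand beside 23.9% lower and 24.2% higher over all genes tested. Ribosomal protein genes encode the structural proteins of the cytosolic ribosome. Of the 37 parents of these copies 36 fell, with a median of -0.49. RPL18AP3 and RPL39P3 were the 2 copies that did not pass, at -0.33 (SE 0.13, edgeR adjusted p = 0.0512) and -0.08 (adjusted p = 0.601). RPL18AP3 passed by DESeq2 (adjusted p = 0.0267). Of the 50 ribosomal protein genes without a member named after them, 18 were the closest coding gene of a clone-named member, and 17 of these 18 fell. Of the 32 with no member by name or by closest sequence, 26 fell and 1 rose. Over all 87 ribosomal protein genes of the table the counts were 79 lower and 1 higher, with a median of -0.48.

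RPL13AP5 is a copy of RPL13A, a protein of the large ribosomal subunit that is also known to silence certain inflammatory transcripts once released from it. Its levels were between 4598 and 4906 CPM with IRF4 shRNA (median 4757) and between 6825 and 8022 CPM in control (median 7195). The highest IRF4 shRNA library thus lay below the lowest control library, and RPL13AP5 changed by -0.61 on the log2 scale (SE 0.04, edgeR adjusted p = 4.26e-09). RPL13A ran from 2573 to 2834 CPM with IRF4 shRNA and from 4454 to 5141 CPM in control, and changed by -0.81 on the log2 scale (SE 0.04, adjusted p = 1.16e-10). Per kilobase of transcript the copy stood above its parent in both groups, with 7767 against 2281 CPM per kb with IRF4 shRNA and 11827 against 4012 CPM per kb in control.

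Wider gaps between copy and parent were found in other ribosomal pairs. RPL23AP42, a copy of RPL23A of the large subunit, ran from 1151 to 1215 CPM with IRF4 shRNA (median 1166) and from 1603 to 1769 CPM in control (median 1666). RPL23A itself ran only from 178 to 192 CPM with IRF4 shRNA and from 258 to 272 CPM in control. Per kilobase, RPL23AP42 had 2502 CPM per kb beside 120.0 for its parent with IRF4 shRNA, and 3551 beside 169 in control. The length used for RPL23A was that of 1 annotated transcript, 1562 bases, against 471 for RPL23AP42. Which form of RPL23A was expressed was not tested. Both rows fell by nearly the same amount, with log2 fold changes of -0.51 and -0.49 (SE 0.03 each). RPL21P16 had 466 to 501 CPM (median 478) in IRF4 shRNA libraries and 696 to 742 CPM (median 715) in control. Its log2 fold change was -0.58 (SE 0.03), beside -0.55 (SE 0.05) for RPL21, which had 31.3 to 36.7 CPM with IRF4 shRNA and 45.7 to 53.6 CPM in control. Neither pseudogene overlapped between the groups, nor did either parent.

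The 5 largest falls were in copies of RPL5, RPL3 and RPS2. RPL5P1, a copy of RPL5, whose protein binds 5S ribosomal RNA, was at 29.5 to 31.6 CPM with IRF4 shRNA (median 30.2) and at 53.5 to 62.4 CPM in control (median 57.1). It fell by 0.93 on the log2 scale (SE 0.04, edgeR adjusted p = 1.21e-10), and RPL5, at 888 to 938 CPM with IRF4 shRNA and 1635 to 1711 CPM in control, fell by 0.88 (SE 0.03). RPL3P7 followed, with 25.7 to 31.1 CPM with IRF4 shRNA and 45.2 to 57.5 CPM in control, and changed by -0.92. The next were RPL5P34 at -0.87, RPL3P2 at -0.86 and RPS2P55 at -0.85. Per kilobase RPL5P1 stood at only 0.0385 of RPL5 with IRF4 shRNA and at 0.0399 in control.

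**Figure D2:**
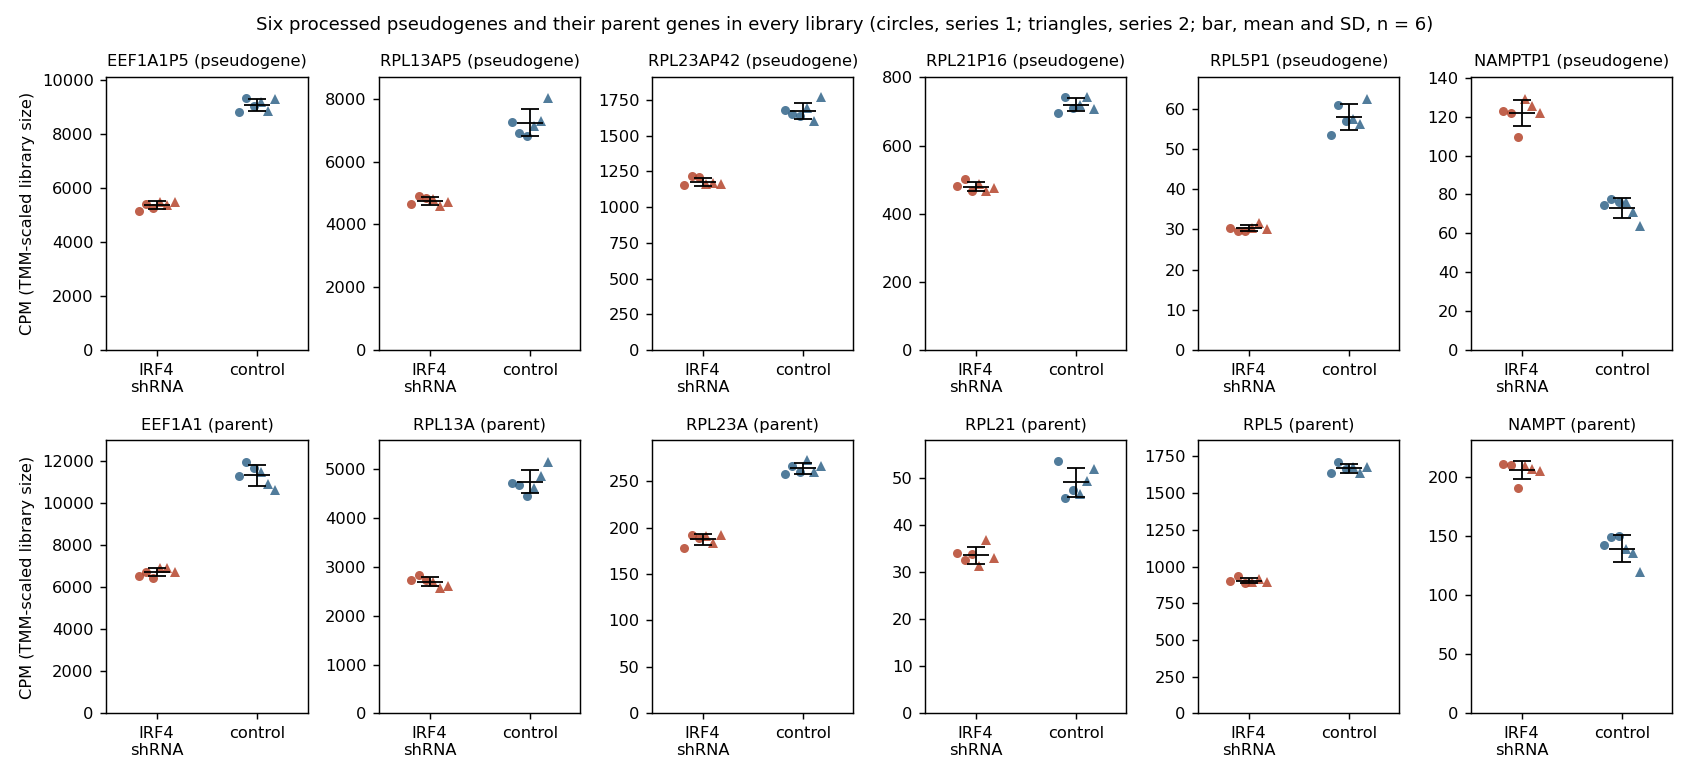
CPM on TMM-scaled library sizes of 6 pseudogenes (upper row) and their parents (lower row) in every library, IRF4 shRNA on the left of each panel and control on the right. Circles are series 1 and triangles series 2, with bars for the mean and SD (n = 6); every pair is lower with IRF4 shRNA except NAMPTP1 and NAMPT, which are higher, and no panel has overlapping groups.

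Copies of translation factor genes fell in 10 of 14 cases and rose in none, with a median log2 fold change of -0.71. Of all genes tested, 23.9% fell and 24.2% rose. EEF1A1P5 is a copy of EEF1A1, which brings aminoacyl-tRNA to the ribosome. It ran from 5154 to 5499 CPM with IRF4 shRNA (median 5400) and from 8814 to 9328 CPM in control (median 9114). The groups did not overlap, with a change of -0.76 on the log2 scale (SE 0.03, edgeR adjusted p = 8.91e-12). EEF1A1 ran from 6425 to 6894 CPM with IRF4 shRNA and from 10629 to 11950 CPM in control, and changed by -0.75 (SE 0.03). Together EEF1A1P5 and RPL13AP5 held 30.4% ± 0.228 of the members' counts with IRF4 shRNA and 33.1% ± 0.257 in control (SD, n = 6 each).

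Within the translation factors, copies and parents had similar changes. EEF1B2P3 and EEF1B2P6, copies of an exchange factor of EEF1A, were at -0.84 and -0.81, beside -0.85 for EEF1B2. All 3 copies of the initiation factor gene EIF4B fell, by 0.73 to 0.74, beside a fall of 0.71 in EIF4B. EIF3FP3 and EIF3EP1, copies of genes for subunits of the eIF3 complex, also fell, with log2 fold changes of -0.70 and -0.62. EIF4HP1 (-0.05), EIF2S2P4 (-0.02), EIF4EP2 (0.09) and EIF4A1P10 (-0.08) did not pass. Among all 14 elongation factor genes of the table (EEF), 7 fell and none rose, against 23.9% and 24.2% of all genes tested.

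The remaining classes were mixed and small, and their counts stand beside 23.9% lower and 24.2% higher over all genes tested. Of 10 copies of genes for nuclear RNA-binding and nucleolar proteins, 5 fell and 3 rose. HNRNPA1P7, a copy of the splicing regulator gene HNRNPA1, had a log2 fold change of -0.39, and NPM1P27, a copy of the nucleolar gene NPM1, one of -0.32. HNRNPA3P6 rose by 0.26, and YBX1P1 and YBX1P10, copies of a cold shock domain gene, by 0.17 each. All 3 copies of mitochondrial genes fell, most of all NDUFV2P1, from a complex I subunit gene, at -0.64. Both chromatin copies rose, PTMAP2 by 0.34 and HMGB1P6 by 0.37. Of the 4 chaperone and prolyl isomerase copies, DNAJB6P1 and HSPD1P1 rose (0.45 and 0.16) and PPIAP22 fell (-0.08). The 2 glycolytic copies went opposite ways, GAPDHP1 at -0.23 and TPI1P1 at 0.15, as did their parents at -0.27 and 0.12. The iron storage copies FTLP3 (-0.06) and FTH1P2 (-0.07) did not pass.

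Among the 26 members with other parents, 8 rose (30.8%) and 6 fell (23.1%), near the 24.2% and 23.9% of all genes tested. NAMPTP1, a copy of NAMPT, which encodes the rate-limiting enzyme of NAD salvage, rose most of all members. It had 110 to 129 CPM with IRF4 shRNA (median 122) and 63.8 to 77.8 CPM in control (median 75.4), which was a rise of 0.73 on the log2 scale (SE 0.05, edgeR adjusted p = 1.89e-08). NAMPT rose by 0.56 (SE 0.05). CACYBPP2, from a gene for a calcyclin-binding protein, ran from 24.4 to 30.0 CPM with IRF4 shRNA and from 16.1 to 20.4 CPM in control and rose by 0.62 (SE 0.06). FABP5P7, from the fatty acid-binding protein gene FABP5, rose by 0.50 (SE 0.05), with FABP5 at 0.44. In none of these 3 pseudogenes did the groups overlap.

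The 49 members without a named parent were assigned the coding gene with the closest transcript. For 31 of them this was a ribosomal protein gene, and all 31 fell (median -0.50), while of the other 18, 3 fell and 8 rose (median 0.01). Over all genes tested, 23.9% fell and 24.2% rose. AC008038.1, next in abundance after RPL13AP5, was closest to EEF1G, a subunit gene of the elongation factor 1 complex, at 99.2% identity. It averaged 1390 ± 41.7 CPM with IRF4 shRNA and 2105 ± 46.2 CPM in control (SD, n = 6 each), with log2 fold changes of -0.60 for the copy and -0.62 for EEF1G. HSP90AA2P, closest to the chaperone gene HSP90AA1, had 58.0 to 65.7 CPM with IRF4 shRNA and 34.5 to 43.4 CPM in control. It rose by 0.64 (SE 0.06), beside 0.68 for HSP90AA1. HSP90AB3P rose by 0.35, beside 0.34 for HSP90AB1.

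The second question was whether a copy moved by another amount than its parent. In 115 of the 122 named pairs the 2 log2 fold changes had the same sign. Both passed the test in the same direction in 88 pairs and in opposite directions in none; in 10 pairs only the pseudogene passed, in 6 only the parent, and in 18 neither. Pearson's r between the 2 log2 fold changes was 0.98 over 122 pairs and 0.97 with 1 copy per parent (92 pairs). It is given as a description, since the pairs share libraries and, through similar sequence, possibly reads. The ratio of pseudogene to parent was tested within each library.

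**Figure D3:**
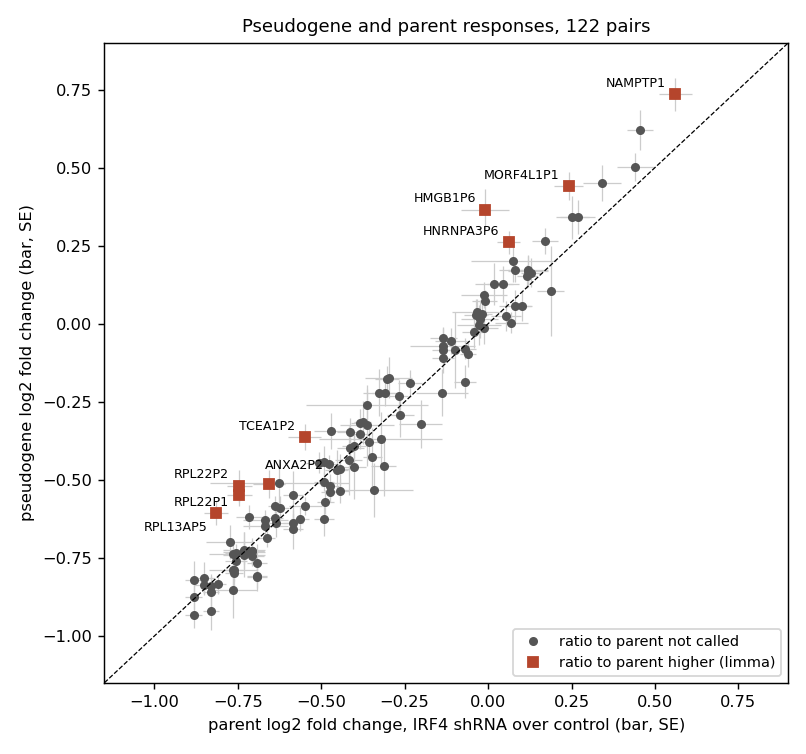
Log2 fold change (IRF4 shRNA over control) of the parent on the horizontal axis and of the pseudogene on the vertical axis for 122 pairs, with SE bars and a dashed line of equality. Squares mark the 9 pairs whose ratio passed the limma test, all above the line; the other pairs lie close to it.

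The ratio changed little. Its absolute change on the log2 scale had a median of 0.05, close to the median SE of 0.05, and was under 0.1 in 98 of 122 pairs. By limma over all 895 pairs of processed pseudogene and named parent, 9 of the 122 members (7.38%) had a changed ratio, against 4.25% of all pairs. All 9 were higher with IRF4 shRNA, against 2.91% higher and 1.34% lower over all pairs. The groups did not overlap in 6 of the 122 ratios (4.92%), against 2.91% of all pairs. The 113 other ratios had changes from -0.19 to 0.16. Without a mean-variance trend limma called 3 of the 9. Series 1 alone gave 14 (9 higher, 5 lower) and series 2 alone 1. Shares over all pairs were not counted in these 3 fits, so their counts have no background beside them.

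HMGB1P6 had the largest change of ratio. It is a copy of HMGB1, a chromatin protein that bends DNA and acts as an alarm signal outside the cell. HMGB1P6 counts were 0.162 ± 0.0067 of those of HMGB1 with IRF4 shRNA (0.156 to 0.172) and 0.127 ± 0.0170 in control (0.114 to 0.155; SD, n = 6 each). The groups did not overlap, though the highest control ratio came close to the lowest IRF4 shRNA ratio, and the change was 0.36 (SE 0.07, limma adjusted p = 0.00221). HMGB1P6 itself had 56.6 to 75.2 CPM with IRF4 shRNA and 45.4 to 51.9 CPM in control, whereas HMGB1 had 360 to 436 CPM with IRF4 shRNA and 331 to 438 CPM in control, a change of -0.0085 on the log2 scale (edgeR adjusted p = 0.934). That value averages opposite directions in the library series, since HMGB1 was at 0.21 in series 2 (edgeR adjusted p = 0.0520) and fell by 0.22 in series 1 (adjusted p = 0.000791), with an interaction at adjusted p = 0.0151. HMGB1P6 rose in both, by 0.48 in series 2 and 0.24 in series 1. HMGB1P6 lies within THSD4, on its opposite strand. The change of its ratio was 0.26 within series 2, where it did not pass (limma adjusted p = 0.145), and 0.46 within series 1.

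RPL13AP5 had the smallest p. Its counts were 1.77 ± 0.0370 times those of RPL13A with IRF4 shRNA (1.71 to 1.80) and 1.53 ± 0.0304 times in control (1.48 to 1.56). The change of 0.21 (SE 0.02, limma adjusted p = 1.3e-05) was seen at 0.20 in series 1 and 0.22 in series 2. Both RPL22 copies were higher relative to RPL22, a large subunit protein gene, by 0.23 (RPL22P2, SE 0.06, adjusted p = 0.0288) and 0.19 (RPL22P1, SE 0.05, adjusted p = 0.0249), with overlapping groups. The RPL22P2 call was lost in 7 of the 12 fits that left out a single library.

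MORF4L1P1, a copy of the chromatin-reader gene MORF4L1, had 1.29 ± 0.0501 times its parent's counts with IRF4 shRNA and 1.12 ± 0.0304 times in control, a change of 0.20 (SE 0.04, adjusted p = 0.00175). HNRNPA3P6 changed by 0.20 (adjusted p = 0.00999), TCEA1P2, from an elongation factor gene of RNA polymerase II, by 0.19 (adjusted p = 0.0040), NAMPTP1 by 0.17 (adjusted p = 0.00554) and ANXA2P2, from the annexin gene ANXA2, by 0.15 (adjusted p = 0.0399). In TCEA1P2 and ANXA2P2 this meant a smaller fall than in the parent (-0.36 against -0.55, and -0.51 against -0.66). In NAMPTP1 and MORF4L1P1 it meant a larger rise (0.73 against 0.56, and 0.44 against 0.24). Without a trend in limma, which left 3 changed ratios, NAMPTP1 (adjusted p = 0.0808) and HNRNPA3P6 (adjusted p = 0.0897) did not pass. The NAMPTP1 ratio also did not pass in series 1 alone (limma adjusted p = 0.0666) or series 2 alone (adjusted p = 0.129).

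**Figure D4:**
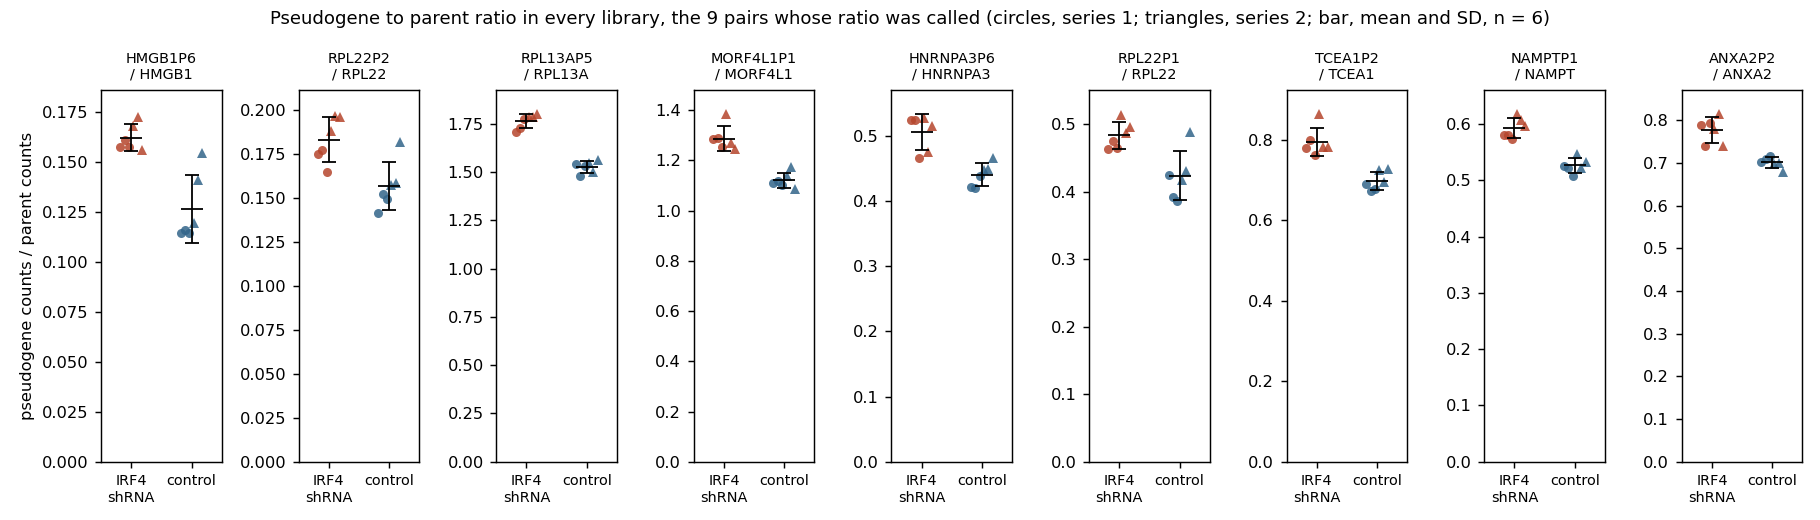
Counts of the pseudogene divided by counts of its parent in every library for the 9 pairs whose ratio passed the limma test, IRF4 shRNA on the left and control on the right of each panel. Circles are series 1, triangles series 2, and bars the mean and SD (n = 6); the groups overlap in RPL22P1, RPL22P2 and HNRNPA3P6 and are apart in the other 6.

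When the members without a named parent were paired with their closest coding gene as well, 11 of 171 ratios passed, against 4.24% of all 944 pairs. The 2 added ratios were lower. AC116533.1, identical to RPL36A over its alignment, fell by 0.64 beside -0.33 for RPL36A (ratio -0.31, SE 0.06, limma adjusted p = 0.00249). AC007068.1 lies within CLEC2D, a lectin gene, on the same strand, so that reads of the 2 rows can overlap. CLEC2D was also its closest coding gene, at 100% identity over its whole length. That match may be of the locus with itself, so the ratio of AC007068.1 need not be one of copy to parent. AC007068.1 had 44.1 to 47.4 CPM with IRF4 shRNA and 51.7 to 56.7 CPM in control. Its log2 fold change was -0.25, beside 0.31 for CLEC2D (ratio -0.56, SE 0.08, limma adjusted p = 0.000142).

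The third question was how much of a gene's apparent level lay in its copies. Here the copies were all processed pseudogenes of the table named after the parent, including those below the threshold for members. GAPDH, for example, had 1 member and 19 such copies. Copies with only a clone name were left out. With the counts of parent and copies added up, the copies held a median of 27.8% of the sum with IRF4 shRNA and 27.9% in control over the 92 parents. For 14 parents with IRF4 shRNA and 16 in control the copies held more than the parent row. The highest shares were those of RPL21 (93.7% with IRF4 shRNA and 93.9% in control), RPL23A (86.4% with IRF4 shRNA and 86.5% in control), RPL7 (83.7% with IRF4 shRNA and 83.3% in control), RPS3A (80.7% with IRF4 shRNA and 80.8% in control) and PSMC1, a proteasome ATPase gene (80.1% with IRF4 shRNA and 80.8% in control). For RPL13A the share was 63.9% with IRF4 shRNA and 60.5% in control. Single members with more counts than their parent numbered 15 in each group.

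Adding the counts of these same copies, members or not, to the parents changed few calls. Of the 92 parents, 55 fell and 12 rose when counted alone, and 58 fell and 14 rose with the copies added, against 24.3% and 24.7% of all genes in that fit. No call was lost or turned round, and EIF4A1, HNRNPA3, RAN, UBE2S and YBX1 were gained. The parents' log2 fold changes moved by a median of 0.01 and by at most 0.12, in RPL13A, which was at -0.69 with its copies and at -0.81 without.

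The level of a copy relative to its parent went with how much sequence it shares. Parent lengths were those of 1 annotated transcript per gene, whether or not that form was expressed, so a long one raises the ratio per kilobase. For PSMC1 it had 4448 bases, against 1320 for PSMC1P1. Compared per kilobase, 35 of the 122 copies with IRF4 shRNA and 32 in control were above their parent. The median ratio was 0.439 with IRF4 shRNA and 0.445 in control. Stretches of 100 bases, the read length, were searched for in transcripts of all other genes, the parent or any other. The share of a pseudogene's stretches that were found there exactly had a median of 23.0%. Spearman's rho between this share and the per-kilobase ratio in control was 0.68 over 122 pairs, a description across genes that share libraries and counting. Where over 50% of stretches were shared (32 pairs), the median ratio was 1.60 with IRF4 shRNA and 1.57 in control. In the 9 pairs with none shared, it was 0.128 with IRF4 shRNA and 0.119 in control.

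**Figure D5:**
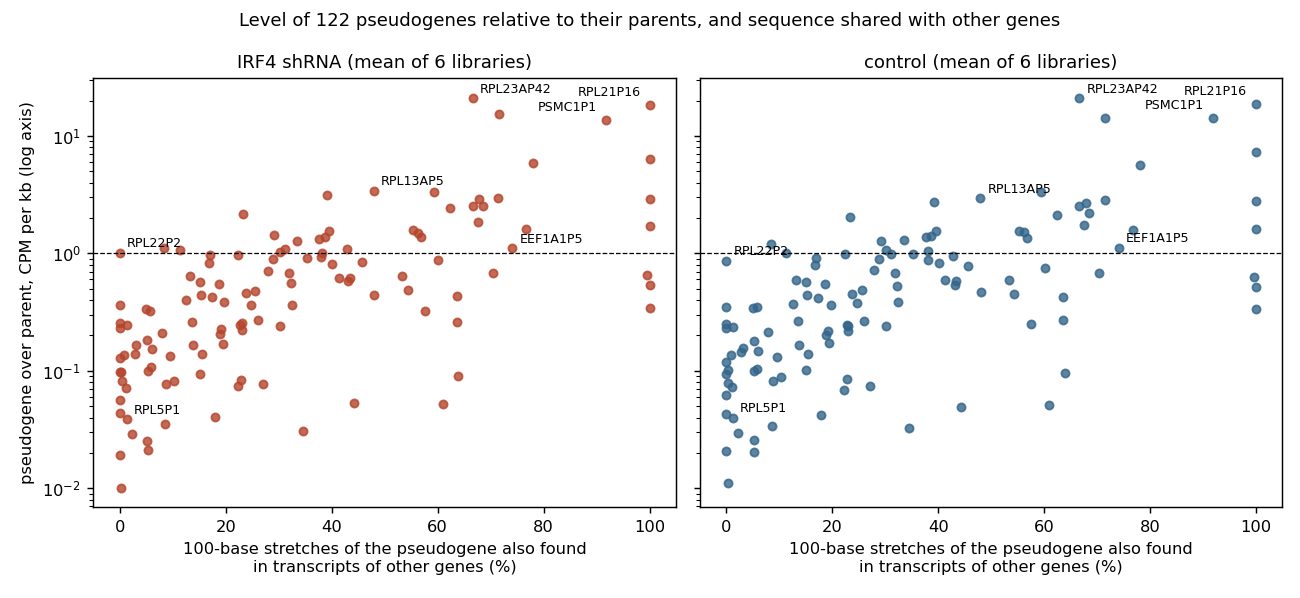
Ratio of pseudogene to parent in mean CPM per kilobase (log axis) against the percentage of 100-base stretches of the pseudogene that are also found in transcripts of other genes, for 122 pairs, IRF4 shRNA on the left and control on the right. The dashed line marks equal levels; RPL23AP42, RPL21P16 and PSMC1P1 lie far above it and RPL5P1 far below, in both groups alike.

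Falls were seen at every degree of shared sequence, and the counts stand beside 23.9% lower and 24.2% higher over all genes tested. Of the 45 members with over 50% of stretches shared, 29 fell and 5 rose. Of the 111 with some but at most 50%, 73 fell and 19 rose. Of the 15 with none, which include RPL22P2, RPL3P7 and GAPDHP1, 14 fell and none rose. Among those with a named parent (32, 81 and 9 members), the absolute change of ratio to the parent had medians of 0.05 in all 3 sets. By position, 74 of the 112 members outside coding genes fell, as did 28 of the 38 inside a coding gene on its opposite strand and 14 of the 21 on its own strand.

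The last comparison asked whether the change differed between the library series. IRF4 itself changed by -1.05 on the log2 scale in series 2 and by -1.53 in series 1, a difference of 0.46 (SE 0.06, edgeR adjusted p = 0.00110). An interaction passed in 9 of 171 members (5.26%) and in 11 of their 92 parents, against 14% of all genes. The count of members depended on every library: it was 1 or 2 without any one of the 6 IRF4 shRNA libraries or of control replicates 2, 3, 5 and 6 (4.45% to 8.3% of all genes). It was 60 without control replicate 4 (32.2% of all genes) and 16 without control replicate 1 (18.8% of all genes). RPL18AP3 differed most, with -0.64 in series 2 and -0.0073 in series 1. Of the 9, 7 had a lower effect in series 2, where over all genes 8.97% passed as lower and 5.07% as higher. These 7 members had GC contents of 53.3% to 62.9%, against a median of 48.3% over all members (34.7% to 64.6%). Over the 171 members Spearman's rho between GC content and the interaction was -0.44, as a description. The part of GC content in this difference was not tested.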

How the data were processed

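STAR, HTSeq and genome build hg38 are named in the submitters' processing notes; the annotation, versions, strand setting and the step that gave fractional values are not given in the sources used here. Libraries were TruSeq stranded and poly(A)-selected, with paired reads of 100 bases, per the labels. The values are estimated counts per gene as deposited by the authors, with no normalization. These were rounded and tested with edgeR 4.0.16 in R 4.3.3 (TMM, filterByExpr with its minimum count of 10, quasi-likelihood test, Benjamini-Hochberg over 16437 genes, threshold 0.05). A positive change means more with IRF4 shRNA, and the standard error (SE) is the absolute log2 change over the root of F. Levels are CPM on TMM-scaled library sizes, except for the membership threshold and the cell type marker genes, which used column totals.

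Ratios were tested with limma 3.58.1 (eBayes with trend) on log2((pseudogene + 0.5)/(parent + 0.5)) over 895 pairs. Sequences and parent transcript lengths (1 coding transcript per gene, chosen by annotation tags and length) came from GENCODE 29, and alignments from blastn 2.17.0. Groups were taken from the titles and the series number from the library names. In simulated counts of 16236 genes edgeR found 49% of log2 changes of size 0.5 and 87% of size 1, with 2.86% of calls false. For simulated ratios of 871 pairs limma found 55% and 84%, with 0.714% of calls false. Libraries of a group differed by more than counting noise (chi-square per degree of freedom 2.73 to 44.8).

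The members, parent classes and lists were chosen with earlier results of these data known. Genes named by rule were EEF1A1P5 and RPL13AP5, the 20 most abundant members, the 5 largest rises and falls, up to 5 changed ratios in each direction, the 3 on each side of the threshold, and parents of these. The class examples, the smaller ratio changes, the members paired by sequence and those singled out by counts were named after their values were seen. Alternatives included DESeq2 1.42.0, other scaling, filters and thresholds, each series alone and leaving out each library.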

Additional observations from a re-analysis of the deposited data

Results flagged for a closer look

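In 9 members the change differed between the library series by the edgeR interaction of series and group (adjusted over all genes), given here as series 2 minus series 1. RPL18AP3 differed by -0.65 (-0.64 in series 2 and -0.0073 in series 1), RPS15P4 by -0.43 (-0.57 in series 2 and -0.16 in series 1), FAUP1 by -0.41 (-0.51 in series 2 and -0.12 in series 1) and AC246787.1 by -0.31 (-0.75 in series 2 and -0.46 in series 1). DGKZP1 differed by -0.32 (0.05 in series 2 and 0.36 in series 1), AC012085.1 by -0.51 (-0.19 in series 2 and 0.30 in series 1) and AC078819.1 by -0.43 (-0.0038 in series 2 and 0.41 in series 1), which had positive changes in series 1. SPCS2P4 differed by 0.29 (-0.19 in series 2 and -0.50 in series 1) and RPL29P11 by 0.35 (-0.03 in series 2 and -0.39 in series 1), with the larger falls in series 1. The count of 9 was 60 without control replicate 4, 16 without control replicate 1 and 1 or 2 without any one of the 6 IRF4 shRNA libraries or the other 4 control libraries.

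A single library stood apart from the other 5 of its group in 11 of 208 groups of 6 tested by Dixon's ratio, which chance gives in about 1 of 20. Among IRF4 shRNA libraries, replicate 3 was low in NAMPTP1 (109.5 CPM against 122 to 129), its parent NAMPT (191 against 205 to 211) and PA2G4P4 (17.9 against 19.7 to 20.7). NPM1P6 was high in replicate 5 (18.5 against 17.5 to 17.8 CPM), the ratio of MORF4L1P1 to MORF4L1 in replicate 4 (1.38 against 1.24 to 1.29), and the parents' share of counts in replicate 2 (5.59% against 5.42% to 5.45%). Among controls, replicate 6 was high in BX679664.3 (573 against 465 to 497 CPM), RPL3P2 (87.6 against 68.6 to 74.8 CPM) and ACTBP2 (30.6 against 21.1 to 23.7 CPM). RPL3P4 was low in control replicate 1 (566 against 603 to 624 CPM) and TLK2 high in control replicate 2 (35.5 against 32.5 to 33.3 CPM). Their part in the comparisons was not tested beyond leaving out each library.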

How the results depend on the processing

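The counts of changed members (130 to 143), changed parents (62 to 72) and all changed genes (6332 to 8667) stayed within 1.5 times the values reported under every alternative run at the same threshold. A threshold of 50 CPM left 89 changed members (78 lower, 11 higher), by its construction, and one of 10 CPM gave 207 (160 lower, 47 higher). When libraries were scaled by their totals only, 111 members fell and 32 rose, beside 18.1% lower and 32% higher over all genes, and the median of all genes moved by 0.07. Leaving out single libraries gave 136 to 143 changed members, 62 to 69 parents, 6 to 9 changed ratios, 1 to 60 members with an interaction, an IRF4 change of -1.31 to -1.22, and a change in the members' share of -1.42 to -1.36 points. Without mitochondrial genes in the total that share changed by -1.52 points. Changed ratios numbered 3 without a trend in limma, 14 in series 1 alone and 1 in series 2 alone, and 12 without control replicates 5 and 6 together, an alternative chosen after seeing the data, as were adding copies to parents and pairing by sequence. For the ratio fits without a trend, of a single series or without some libraries, shares over all pairs were not counted. The cause was not tested.

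RPL13, the parent of RPL13P12, at -0.63 (edgeR adjusted p = 0.0219), no longer passed in series 1 alone (-0.027, adjusted p = 0.812), with a replicate block (-0.55, adjusted p = 0.10), without control replicates 5 and 6 (-0.21, adjusted p = 0.141), and without any one of 5 single libraries (-0.58 to -0.47, adjusted p 0.0512 to 0.0575). Libraries with the same replicate number did not deviate together (r of 0.03, -0.29, -0.38, 0.24, -0.41 and -0.43), so numbers were not taken as pairs. A replicate block gave 134 members, 63 parents, 6942 genes and 8 ratios.

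Small changes that had not passed the test changed sign. In series 1 alone this was so for the ratio to parent of EEF1A1P5 (0.046), RPL23AP42 (0.013), RPL4P4 (-0.037), RPL3P4 (0.00058), DNAJB6P1 (-0.051), RPL3P2 (0.093), TLK2P1 (-0.058), RPL41P2 (0.074) and RPL13P12, which there passed at -0.32 (limma adjusted p = 0.00929), and for the level of PA2G4P4 (-0.028). In series 2 alone it was so for the ratios of RPS3AP6 (0.097), RPL7P9 (-0.030), RPSAP58 (0.013), RPL18AP3 (-0.094), RPS3AP26 (0.11), RPL3P7 (0.046) and RPL5P34 (-0.037), and the levels of TLK2P1 (0.061) and HMGB1 (0.21). Without control replicates 5 and 6 it was so for the ratios of EEF1A1P5 (0.030), RPL4P4 (-0.0043), RPS3AP26 (0.018), RPL3P4 (0.0059), RPL13P12 (-0.16), RPL3P2 (0.039) and TLK2P1 (-0.018), and the level of PA2G4P4 (-0.0061). With library size alone TLK2P1 (0.047), HMGB1 (0.065) and TLK2 (0.033) turned positive, as did HMGB1 (0.0023) without the filter. Over single libraries left out, ratios ran across 0 in EEF1A1P5 (-0.017 to 0.019), RPL23AP42 (-0.022 to 0.00072), RPS3AP6 (-0.037 to 0.054), RPL4P4 (-0.0034 to 0.024), RPL14P1 (-0.037 to 0.00054), RPS3AP26 (-0.068 to 0.073), RPL3P4 (-0.028 to 0.0012), RPL13P12 (-0.036 to 0.12), RPL5P34 (-0.0051 to 0.029), RPL3P2 (-0.052 to 0.018), TLK2P1 (-0.0078 to 0.048) and RPL41P2 (-0.061 to 0.051), and levels in TLK2P1 (-0.048 to 0.017) and HMGB1 (-0.057 to 0.032).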

Other observations

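In 9 members every stretch of 100 bases was also present in a transcript of another gene. They include RPL21P16, FABP5P7, RPS28P7, RPL39P3, RPL12P16, LSM12P1 and H3P6, and the clone-named AC116533.1 and AC007068.1. The other gene need not be the parent. RPL12P16 lies within NBEAL1 on the same strand, and only 31.8% of its stretches occurred in transcripts of RPL12. H3P6, identical over its alignment to the histone variant gene H3F3A, had 134 ± 2.77 CPM with IRF4 shRNA and 137 ± 10.2 CPM in control (SD, n = 6 each), with a log2 fold change of -0.04 that did not pass, whereas H3F3A fell by 0.21 (edgeR adjusted p = 0.0015). The ratio of H3P6 to H3F3A changed by 0.17 (limma adjusted p = 0.278).

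Of the 10 pairs in which only the pseudogene passed, 6 pseudogenes rose. DGKZP1, from the diacylglycerol kinase gene DGKZ, rose by 0.20 (edgeR adjusted p = 0.0213), beside 0.08 for DGKZ (adjusted p = 0.656). Both differed between the library series: DGKZ was at -0.29 in series 2 (edgeR adjusted p = 0.149) and rose by 0.43 in series 1 (adjusted p = 3.47e-05; interaction adjusted p = 0.0151), and DGKZP1 was at 0.05 in series 2 (adjusted p = 0.585) and rose by 0.36 in series 1 (adjusted p = 0.000574). SERBP1P5, from an mRNA-binding protein gene, rose by 0.17 (adjusted p = 0.00185), beside 0.08 for SERBP1 (adjusted p = 0.193). Of the 6 pairs in which only the parent passed, PPIAP31 was at -0.11 (adjusted p = 0.0853) beside -0.14 for the cyclophilin gene PPIA (adjusted p = 0.0025), and TMSB4XP6 at 0.10 (SE 0.14) beside 0.19 for the thymosin gene TMSB4X. The ratio passed in HNRNPA3P6 and HMGB1P6 among these 16 pairs.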
